A study of Homo sapiens with 6 samples.

Results

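The genes described here are 10 secreted products of the goblet and other secretory cells of the intestine: REG4, AGR2, AGR3, LGALS4, TFF1, TFF2, TFF3, FCGBP, ZG16 and CLCA1. They are 10 of the 60483 gene IDs counted in each library and were found by their Ensembl IDs. The list was drawn up with the control levels and the fold changes of these same libraries known, so the genes count as chosen on those values. Their levels and fold changes are therefore given as a description, without p-values. The libraries are RNA-seq of 253J, a human bladder cancer cell line, transfected either with siRNA against FTO, the demethylase that removes N6-methyladenosine from RNA (siFTO, replicates 4, 5 and 6), or with a control siRNA (control, replicates 1, 2 and 3). All 6 were grown in serum-containing medium. The labels name siRNA, whereas the methods of the study describe shRNA, and 1 cell line was used. Nothing states that the replicates were separate cultures, so the p-values of other genes cover the spread among these 6 libraries, and this may be technical spread.

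Goblet cells fill the intestinal lumen with mucus. They fold and link gel-forming mucins in the endoplasmic reticulum, add sugars to them in the Golgi and release them from granules together with small proteins that organise the gel. The trefoil peptides TFF1, TFF2 and TFF3 are released with mucins and aid epithelial repair. AGR2 is a protein disulfide isomerase of the endoplasmic reticulum that mouse intestine needs to make the mucin Muc2, and AGR3 is its close relative. FCGBP, CLCA1 and ZG16 are proteins of the mucus itself: FCGBP is a large protein built of repeated von Willebrand factor D domains, CLCA1 is a protease that acts on mucus, and ZG16 is a lectin-like protein that binds the wall of Gram-positive bacteria. REG4 is a secreted C-type lectin-like protein that marks secretory cells of the deep colonic crypt in the mouse. LGALS4 encodes galectin-4, a sugar-binding protein of gut epithelium that leaves cells without a signal peptide and is also made by absorptive cells.

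Sequence upstream of the start was held for 6 of the 10 genes in a RefSeq table on GRCh38.p14. The 4 windows printed here are those of the 3 members called in the comparison (REG4, AGR2 and LGALS4) and of AGR3, the neighbour and relative of AGR2 that was listed at 0. Each runs 5′ to 3′ over the 250 bases before the RefSeq start, all on the minus strand: chr1:119811461-119811710 for REG4, chr7:16805000-16805249 for AGR2, chr7:16881984-16882233 for AGR3 and chr19:38812946-38813195 for LGALS4. By the gene spans printed below, the AGR2 and LGALS4 windows lie wholly inside the gene, and the REG4 and AGR3 windows in part. For AGR2, LGALS4 and REG4 a further annotated start thus lies upstream of the RefSeq start used. Capitals mark matches to 4 searched motifs on either strand.
REG4: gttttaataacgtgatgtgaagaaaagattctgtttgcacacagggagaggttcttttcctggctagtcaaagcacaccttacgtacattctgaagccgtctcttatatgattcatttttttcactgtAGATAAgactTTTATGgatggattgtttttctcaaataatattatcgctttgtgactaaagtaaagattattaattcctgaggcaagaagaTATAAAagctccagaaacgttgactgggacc
AGR2: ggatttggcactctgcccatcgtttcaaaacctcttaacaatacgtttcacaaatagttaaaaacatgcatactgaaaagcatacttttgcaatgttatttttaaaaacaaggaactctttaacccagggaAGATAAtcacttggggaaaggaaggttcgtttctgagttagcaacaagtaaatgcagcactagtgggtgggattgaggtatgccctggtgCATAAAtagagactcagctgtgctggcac
AGR3: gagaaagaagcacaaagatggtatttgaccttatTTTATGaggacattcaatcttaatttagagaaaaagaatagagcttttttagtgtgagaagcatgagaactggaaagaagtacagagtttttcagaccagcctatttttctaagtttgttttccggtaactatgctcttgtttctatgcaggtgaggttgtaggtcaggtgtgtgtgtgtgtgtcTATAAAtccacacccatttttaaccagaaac
LGALS4: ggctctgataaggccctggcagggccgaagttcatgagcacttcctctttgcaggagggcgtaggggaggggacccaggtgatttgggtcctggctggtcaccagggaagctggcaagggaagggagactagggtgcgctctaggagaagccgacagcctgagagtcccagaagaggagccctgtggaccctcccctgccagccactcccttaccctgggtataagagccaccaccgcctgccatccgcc

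The CDX motif, of the family of intestinal homeobox factors, was searched as TTTATG. The core promoter element called the TATA box was searched as TATAAA. The motif of the FOXA family, forkhead factors of endoderm, was searched as TGTTTAC, and that of the GATA family, zinc finger factors of endoderm, as AGATAA. Each was also searched as its reverse complement, and no matches overlapped. REG4 held AGATAA at positions -122 to -117 from the start, TTTATG at -112 to -107 and TATAAA at -31 to -26. AGR2 held AGATAA at -119 to -114 and the reverse complement CATAAA of the CDX letters at -29 to -24. AGR3 held TTTATG at -216 to -211 and TATAAA at -31 to -26. The LGALS4 window held none of the 4 motifs, and neither did those of FCGBP and CLCA1. Among all 35116 windows of this length in the table, 9.64% held the CDX letters, 10.7% the TATA box, 2.98% the FOXA letters and 9.17% the GATA letters. The REG4, AGR2 and AGR3 windows were rich in A and T, with a GC content of 35.6%, 40.4% and 36.4%, while that of LGALS4 was 63.2% and the median of all windows was 58%. These matches are descriptions of letters, and binding was not measured.

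Total counts ranged from 13162731 to 15709975 in the siFTO libraries and from 10991789 to 19891269 in the controls. Levels are given as CPM, counts scaled to a common library size with factors from TMM (a scaling that lets the bulk of genes keep the same level). FTO itself was 20.2, 20.7 and 15.7 CPM in siFTO replicates 4, 5 and 6, against 31.8, 21.4 and 31.2 CPM in control replicates 1, 2 and 3, a log2 fold change of -0.57 (SE 0.16, edgeR's quasi-likelihood test, adjusted p = 0.0209). SiFTO replicates 4 and 5 stood apart from the other 4 libraries by RNA of other cell types. The summed level of 8 fibroblast markers was 917.0 and 1093 CPM in them and 21.1 CPM in siFTO replicate 6, against 15.6 to 16.7 CPM in the controls, and 3 of the 8 reached 10 CPM. Among them VIM was 635.5, 730.4 and 0.292 CPM in siFTO replicates 4, 5 and 6 and at most 1.02 CPM in the controls. Likewise 7 leukocyte markers, of which PTPRC and CD3E were at or near 0 throughout, summed to 81.6, 104.5 and 6.05 CPM in the siFTO libraries and 3.75 to 4.93 CPM in the controls. Of 8 urothelial markers, UPK1B was listed at 0 in every library and PPARG alone reached 10 CPM, although the cells are labelled as bladder cancer. Of 9 markers of absorptive intestinal cells, 4 reached 10 CPM in each siFTO library and 3 in each control, and SI was listed at 0 in every library. VIL1, a protein of the intestinal brush border and 1 of the 9, was 280.2 to 361.1 CPM in siFTO cells and 286.0 to 311.1 CPM in controls. Whether the cells are 253J was not tested. Fewer cells that express a gene and less of its RNA per cell cannot be told apart in such bulk libraries.

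Of the 10 products, 8 had at least 1 count and 7 had enough counts to be tested among the 14965 genes of the fit. In that fit 1 member, REG4, was called higher in siFTO cells at an adjusted p under 0.05, where 19.5% of all genes tested were called higher. AGR2 and LGALS4, 2 members, were called lower, where 17.9% of all genes were. The siFTO libraries lay above every control for 1 member, as for 25.8% of all genes, and below every control for 1 member, as for 25.6% of all genes. In the other 5 tested members the groups overlapped. The log2 fold change was below 0 in 6 of the 7, and the median over the 7 was -0.27, against 0.01 over all genes tested. As the members were chosen with this contrast known, nothing is read from these counts.

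**Figure D1:**
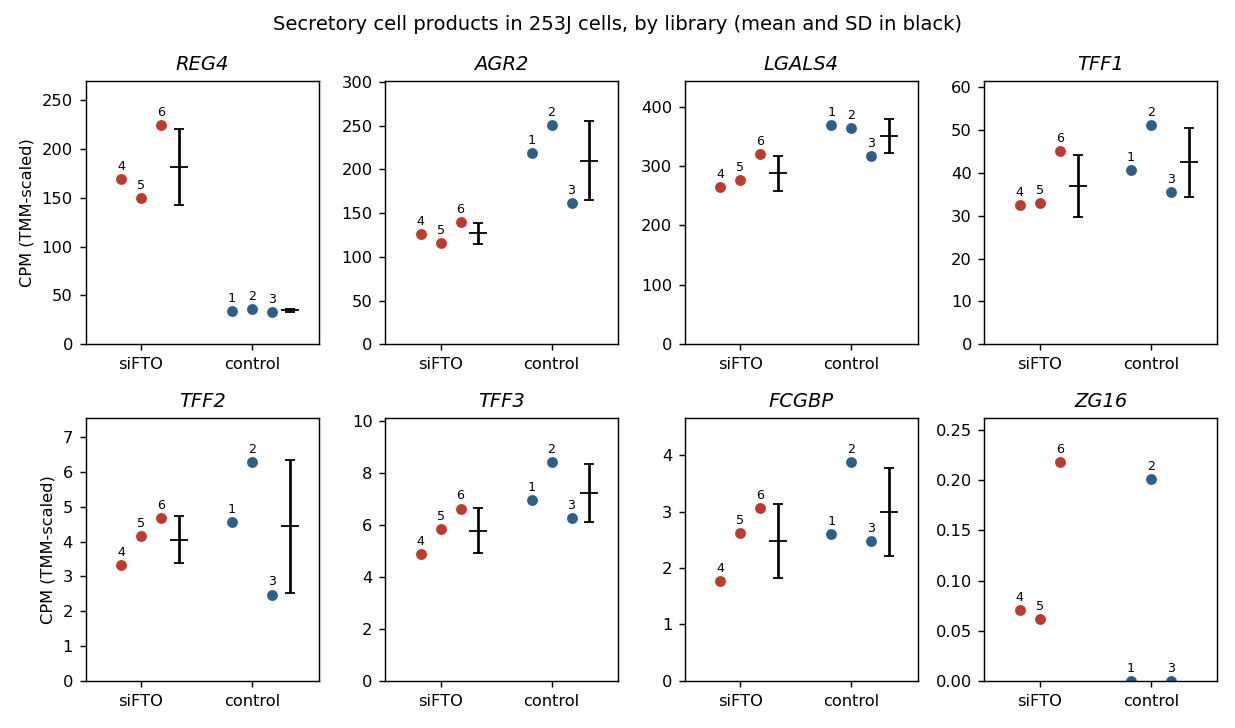
Levels of the 8 members with at least 1 count, in CPM on a separate linear axis for each gene. Points are libraries with their replicate number (siFTO left, control right), and black bars are the mean and SD of 3 libraries, left out for ZG16. REG4 was at 150.1 CPM or more in every siFTO library and at 36.3 CPM or less in every control, while AGR2 reached 139.7 CPM at most in siFTO libraries and 161.0 CPM at least in controls.

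To order the genes by level, CPM was divided by the length of all exons of the gene in kb. LGALS4 was the most abundant product in either group, at 108.7 ± 11.2 CPM per kb in siFTO cells and 132.4 ± 10.9 CPM per kb in controls (SD, n = 3 each). In siFTO cells TFF1 came next at 67.0 ± 13.0 CPM per kb, then REG4 at 51.9 ± 11.1 CPM per kb and AGR2 at 44.6 ± 4.32 CPM per kb, and the range of REG4 overlapped those of both TFF1 and AGR2. In controls TFF1 came next at 77.1 ± 14.5 CPM per kb and then AGR2 at 73.9 ± 16.0 CPM per kb, with overlapping ranges. REG4 followed in controls at 9.95 ± 0.41 CPM per kb, below every library of the 3 genes above it, so REG4 and AGR2 changed places between the groups. TFF3 and TFF2 followed in both groups. TFF3 was at 4.95 ± 0.75 CPM per kb in siFTO cells and 6.18 ± 0.95 CPM per kb in controls, and TFF2 at 4.88 ± 0.82 CPM per kb in siFTO cells and 5.36 ± 2.30 CPM per kb in controls, without separation between the pair. FCGBP was far lower, at 0.19 CPM per kb in siFTO cells and 0.23 CPM per kb in controls. The order depended on the length used: by the median length of basic transcripts, REG4 (126.2 CPM per kb) and AGR2 (99.1 CPM per kb) lay above TFF1 (67.0 CPM per kb) in siFTO cells, and AGR2 (164.2 CPM per kb) lay above TFF1 (77.1 CPM per kb) in controls.

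**Figure D2:**
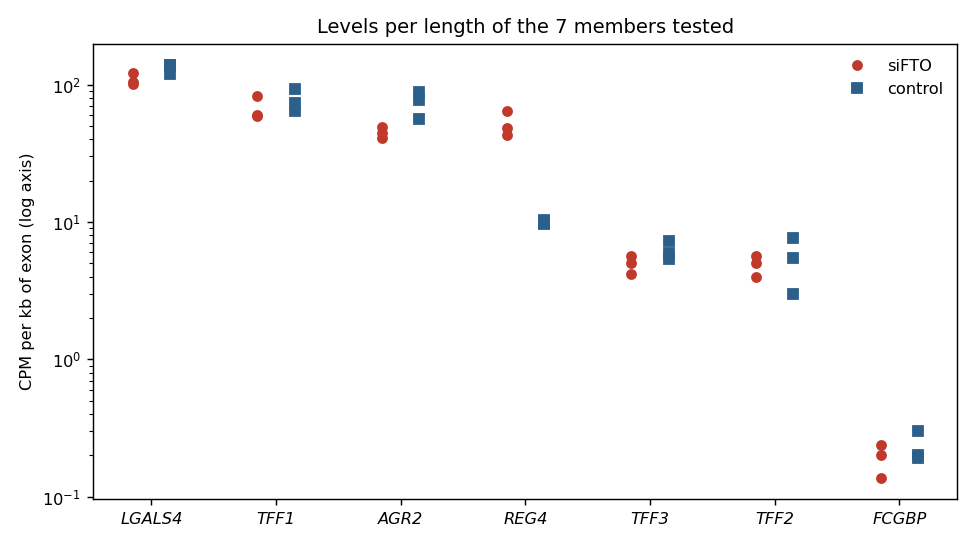
Levels per length of the 7 members tested, in CPM per kb of exon on a log axis, with 1 symbol per library (siFTO circles left, control squares right). REG4 averaged 51.9 CPM per kb in siFTO cells, beside AGR2 at 44.6 CPM per kb, and 9.95 CPM per kb in controls, between AGR2 and TFF3.

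REG4 (ENSG00000134193.13, chr1:119794018-119811660, minus strand, GRCh38) rose in siFTO cells. Its counts were 2392, 2414 and 3085 in siFTO replicates 4, 5 and 6, against 371, 542 and 648 in control replicates 1, 2 and 3. On the CPM scale these were 169.2, 150.1 and 224.9 CPM in siFTO libraries, against 34.5, 36.3 and 33.5 CPM in controls. The lowest siFTO library was thus well above the highest control, and the controls were nearly equal while siFTO replicate 6 stood above replicates 4 and 5. The means were 181.4 ± 38.9 CPM in siFTO cells and 34.8 ± 1.43 CPM in controls (SD, n = 3 each), a fold of 5.22 and a log2 fold change of 2.38 (SE 0.14). Over 15 alternative settings the log2 fold change ranged from 2.19 to 2.69. It was 2.69 without siFTO replicates 4 and 5, the libraries rich in fibroblast markers, a setting that leaves 1 siFTO library and takes the spread from the 3 controls alone.

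LGALS4 (ENSG00000171747.7, chr19:38801671-38813364, minus strand) was the galectin among the members, and its groups overlapped. It was 265.1, 276.4 and 321.0 CPM in siFTO replicates 4, 5 and 6, against 369.2, 364.2 and 316.9 CPM in control replicates 1, 2 and 3. SiFTO replicate 6 was slightly above control replicate 3, and all other pairs had the siFTO library below the control. The means were 287.5 ± 29.5 CPM in siFTO cells and 350.1 ± 28.8 CPM in controls (SD, n = 3 each), a log2 fold change of -0.28 (SE 0.10) that passed the threshold in the fit of all 6 libraries. The call was lost under 10 of the 15 alternatives. Among these, the value was -0.25, -0.25 and -0.35 without control replicate 1, 2 or 3, -0.23 and -0.25 without siFTO replicate 4 or 5, and -0.12 without both siFTO replicates 4 and 5. It was -0.38 without siFTO replicate 6, where the call was kept.

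AGR2 (ENSG00000106541.10, chr7:16791811-16833433, minus strand) fell in siFTO cells. Its counts were 1776, 1854 and 1917 in siFTO replicates 4, 5 and 6, against 2349, 3746 and 3116 in control replicates 1, 2 and 3. As CPM these were 125.6, 115.3 and 139.7 in siFTO libraries, against 218.5, 250.9 and 161.0 in controls. The groups did not overlap, but control replicate 3 lay nearer to the siFTO libraries than to the other controls. The means were 126.9 ± 12.3 CPM in siFTO cells and 210.2 ± 45.5 CPM in controls (SD, n = 3 each), a ratio of 0.604 and a log2 fold change of -0.73 (SE 0.15). Over the 15 alternatives the value ranged from -0.89 to -0.58. The call was lost without control replicate 1, at -0.71, and without siFTO replicates 4 and 5, at -0.59.

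AGR3 (ENSG00000173467.7, chr7:16859405-16881987, minus strand) is separated from AGR2 by 25971 bases and was listed at 0 in all 6 libraries. A count of 0 allows up to 3 counts, or 0.191 to 0.228 CPM in the siFTO libraries and 0.151 to 0.273 CPM in the controls, and covers counting error only. The pair thus differed in detection in every library. The pseudogene RAD17P1 overlaps AGR3 in the annotation. A listed 0 is not shown to be absence here. All 37 mitochondrial genes and XBP1, a factor of the unfolded protein response that most cells use, were also listed at 0 in every library.

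The 3 trefoil genes lie together on chromosome 21 and none was called. TFF1 (ENSG00000160182.2, chr21:42362282-42366594, minus strand), a trefoil peptide best known from stomach surface cells, was 32.6, 33.0 and 45.2 CPM in siFTO replicates 4, 5 and 6, against 40.7, 51.2 and 35.5 CPM in control replicates 1, 2 and 3. TFF2 (ENSG00000160181.7, chr21:42346357-42351128, minus strand), a peptide with a pair of trefoil domains, was 3.33, 4.17 and 4.67 CPM in siFTO libraries, against 4.56, 6.30 and 2.48 CPM in controls. TFF3 (ENSG00000160180.15, chr21:42311667-42315651, minus strand), the trefoil peptide of intestinal goblet cells, was 4.88, 5.84 and 6.63 CPM in siFTO libraries, against 6.98, 8.44 and 6.25 CPM in controls. In each of these genes siFTO replicate 6 was the highest siFTO library and lay above control replicate 3, so the groups overlapped. The log2 fold changes were -0.20 (SE 0.16) for TFF1, -0.12 (SE 0.31) for TFF2 and -0.32 (SE 0.19) for TFF3. TFF2 rested on 47, 67 and 64 counts in siFTO libraries and 49, 94 and 48 counts in controls, and its spread among controls was the widest of the 7 members, at an SD of 0.68 on the log2 scale. TFF3 was not called in any of the 15 alternatives. The sign of TFF1 turned without siFTO replicates 4 and 5 (0.09) and the call was made without siFTO replicate 6 (-0.38), and the sign of TFF2 turned without control replicate 2 (0.22).

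The mucus proteins were scarce. FCGBP (ENSG00000275395.3, chr19:39863323-39934626, minus strand) had 25, 42 and 42 counts in siFTO replicates 4, 5 and 6, against 28, 58 and 48 counts in control replicates 1, 2 and 3. This was 2.48 ± 0.656 CPM in siFTO cells and 2.99 ± 0.777 CPM in controls (SD, n = 3 each), with overlapping groups and a log2 fold change of -0.27 (SE 0.28). ZG16 (ENSG00000174992.7, chr16:29778240-29782973, plus strand) had 1, 1 and 3 counts in siFTO libraries, against 0, 3 and 0 counts in controls. It was at or under 3 counts in every library and did not enter the fit, so no fold is given. CLCA1 (ENSG00000016490.14, chr1:86468368-86500289, plus strand) was listed at 0 in all 6 libraries, with the same limits as AGR3.

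**Figure D3:**
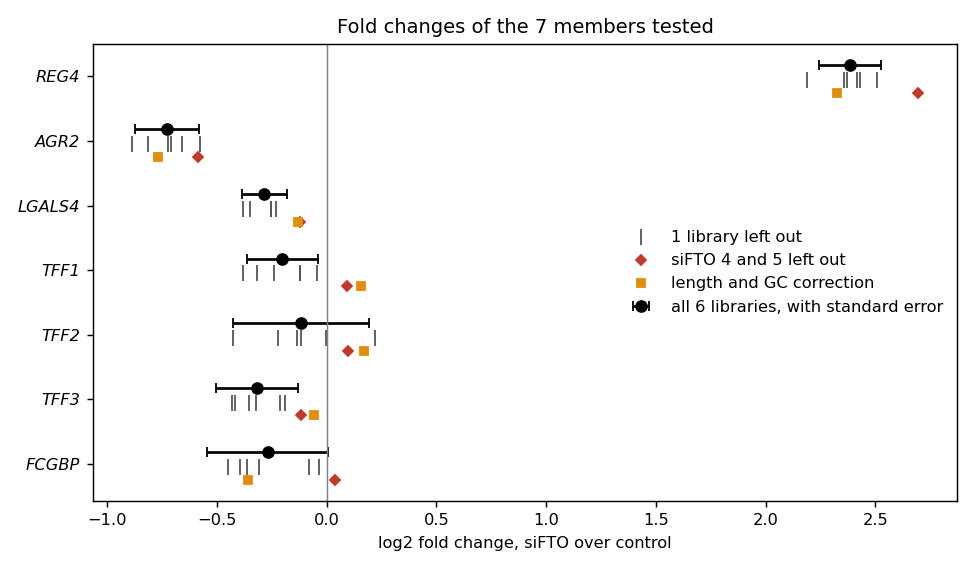
Log2 fold change of siFTO over control for the 7 members tested. Black points and bars are the fit of all 6 libraries with its standard error, ticks leave out 1 library each, diamonds leave out siFTO replicates 4 and 5, and squares add a correction for length and GC content. REG4 stayed between 2.19 and 2.69 and AGR2 between -0.89 and -0.58, while TFF1, TFF2 and FCGBP crossed 0.

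The 7 tested members had the same highest siFTO library and the same lowest control. Among siFTO libraries all 7 were highest in replicate 6, as were 38.6% of all genes tested. REG4 in replicate 6 was 1.41 times the mean of replicates 4 and 5, FCGBP 1.40 times, TFF1 1.38 times and AGR2 1.16 times. The fibroblast marker sum ran the other way, at 21.1 CPM in replicate 6 and 917.0 and 1093 CPM in replicates 4 and 5, and its part in this was not tested. Among controls all 7 were lowest in replicate 3, as were 30.4% of all genes, and 6 were highest in replicate 2, as were 38.3% of all genes. The exception was LGALS4, which was highest in control replicate 1. Control replicate 3 was the deepest library and control replicate 1 the shallowest. Members of 1 library share its preparation, so these positions are not independent observations.

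Genes with the most similar pattern were sought for the 3 called members by Pearson correlation of log2 CPM over the 6 libraries among 10261 genes, as a description. REG4 was most like KRT20 (r = 0.998), a keratin of differentiated intestinal epithelium. KRT20 was 20.2, 20.2 and 27.6 CPM in siFTO replicates 4, 5 and 6, against 4.56, 4.29 and 3.88 CPM in control replicates 1, 2 and 3. STOM (r = 0.997) and AGFG2 (r = 0.997) followed. AGR2 was most like HEBP2 (r = 0.998), CAMLG (r = 0.998) and EXOSC1 (r = 0.997), and LGALS4 like LRRC75A (r = 0.993), ZNF133 (r = 0.990) and PTK6 (r = 0.986). Such values were common with 6 points in 2 groups, since 408 genes exceeded 0.95 with REG4, 291 with AGR2 and 87 with LGALS4.

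The genes within 100 kb of REG4 and AGR2 were looked at after their values were seen. PHGDH, the first enzyme of serine synthesis, lies 49791 bases from REG4 and was 236.6, 242.3 and 212.2 CPM in siFTO libraries, against 728.6, 923.0 and 631.9 CPM in controls. This was a log2 fold change of -1.72 (SE 0.13, edgeR adjusted p = 7.06e-05). NOTCH2, a Notch receptor 99892 bases from REG4, rose by 0.90 on the log2 scale (edgeR adjusted p = 0.000783), so the neighbours of REG4 did not move one way. Around AGR2, AHR, a ligand-activated transcription factor, rose by 0.95 on the log2 scale (edgeR adjusted p = 0.00114), BZW2 fell by 0.37 (edgeR adjusted p = 0.00791) and TSPAN13, the nearest, was not called at 0.12.

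The products were set beside 11 lists of related genes, with 82 of 108 listed genes tested. The lists cover relatives of the members, mucins and other goblet cell products, lineage transcription factors, and genes that fold, modify or release secreted proteins. In siFTO cells 23 of the 82 were higher, 22 lower and 37 not called, while 19.5% of all genes tested were higher and 17.9% lower, the shares to set beside each list. Fewer were called in each direction without siFTO replicates 4 and 5. That fit leaves 1 siFTO library, and fewer of all genes tested were called in it too. Among gel-forming mucins, the main cargo of goblet cells, 2 of 4 tested genes were higher and 1 lower. MUC2, the mucin of intestinal mucus, was 24.7, 24.4 and 33.3 CPM in siFTO replicates 4, 5 and 6, against 6.14, 4.15 and 5.84 CPM in control replicates 1, 2 and 3. Its log2 fold change of 2.35 (SE 0.18, edgeR adjusted p = 7.1e-05) stood close to the 2.38 of REG4, and replicate 6 was again the highest siFTO library. MUC5B rose by 0.46 (SE 0.09, edgeR adjusted p = 0.00456). MUC5AC was at -0.0045 (SE 0.10) and not called. MUC6 was called lower at -1.01, and this call was lost when any of the 6 libraries was left out, with values of -1.19 to -0.77.

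Of 14 transcription factors of the secretory lineage 12 were tested, and of these 5 were lower and 1 higher. The other 2, ATOH1 and XBP1, were listed at 0 in every library, with the same reserve as for AGR3. SPDEF, which drives goblet cell maturation in mouse intestine, was 1.27, 1.06 and 1.02 CPM in siFTO libraries, against 4.56, 4.29 and 4.29 CPM in controls, a log2 fold change of -1.96 (SE 0.22, edgeR adjusted p = 0.000509). CREB3L4 fell by 0.86 (SE 0.13, edgeR adjusted p = 0.0013). SPDEF and CREB3L4 were called under all 15 alternatives. CREB3L1 was called higher at 2.93, but it was 26.9, 33.1 and 1.97 CPM in siFTO replicates 4, 5 and 6, against 2.43 to 3.26 CPM in controls. It was at -0.47 without siFTO replicates 4 and 5, and its call was also lost without any 1 of the controls, at values within 2.40 to 3.46.

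Among all genes tested 19.5% were higher and 17.9% lower. Of 16 tested protein disulfide isomerases, the relatives of AGR2, 2 were higher, 2 lower and 12 not called, with a median log2 fold change of 0.11. With 1 library left out 1 to 3 were higher and 1 to 3 lower: 1 was higher without control replicate 2, control replicate 3, siFTO replicate 4 or siFTO replicate 5, 1 was lower without control replicate 1 or siFTO replicate 5, and 3 were called in each direction without siFTO replicate 6. ERP29, a chaperone of this family, was 266.6, 277.2 and 276.1 CPM in siFTO libraries, against 397.9, 508.9 and 380.9 CPM in controls, or -0.65 (SE 0.11, edgeR adjusted p = 0.00227). Of 5 oxidases of protein disulfide formation (the list labelled ER oxidases), 1, QSOX2, was called higher at 0.22. This call was lost when any 1 of the 6 libraries was left out, at 0.19 to 0.25. Among 6 tested galectins other than LGALS4, 1 was higher and 2 lower, and the 2 became 1 without any 1 of the controls or siFTO replicate 5. LGALS1 was 500.5, 738.8 and 148.4 CPM in siFTO replicates 4, 5 and 6, against 121.1 to 185.4 CPM in controls, and its log2 fold change of 1.64 was 0.0031 without siFTO replicates 4 and 5. Its call was also lost without any 1 of the controls, at values within 1.13 to 2.05. Of the 4 other REG genes 3 were listed at 0, with the same reserve as for AGR3, and REG1A was at 0.249 to 0.437 CPM in siFTO libraries and 0.536 to 0.827 CPM in controls.

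Of 17 tested enzymes that build mucin O-glycans 9 were higher and 5 lower, with a median of 0.44 against 0.01 over all genes. Fewer were called in each direction without siFTO replicates 4 and 5, as among all genes tested. The 5 lower became 2 without control replicate 1, control replicate 2 or siFTO replicate 5, and 3 without control replicate 3 or siFTO replicate 4. GCNT1, a branching enzyme of these glycans, was 11.7, 18.7 and 4.30 CPM in siFTO replicates 4, 5 and 6, against 1.88 to 2.69 CPM in controls. Its log2 fold change of 2.31 was 0.88, and not called, without siFTO replicates 4 and 5, and the call was also lost without control replicate 2. ST6GALNAC2, a sialyltransferase, fell by 1.22 (SE 0.23, edgeR adjusted p = 0.00327) and was called under all 15 alternatives. Of 16 genes of granule release 6 were higher and 5 lower. Here too fewer were called in each direction without siFTO replicates 4 and 5, as among all genes tested. The 6 higher became 3 without control replicate 2 or 3, and the 5 lower became 3 without control replicate 1, control replicate 2 or siFTO replicate 4. SYTL2, a synaptotagmin-like effector of RAB27, was 20.7, 20.8 and 21.6 CPM in siFTO libraries, against 6.23, 5.22 and 4.34 CPM in controls (log2 fold change 2.01, SE 0.15, edgeR adjusted p = 6.7e-05). Its relative SYTL1 was lower by contrast, at 22.4, 26.7 and 25.4 CPM in siFTO libraries, against 56.9, 77.7 and 54.7 CPM in controls (log2 fold change -1.35, SE 0.14, edgeR adjusted p = 0.000372). Of the other goblet cell products 5 of 12 were tested. SPINK4, a protease inhibitor of goblet cells, was 20.0, 22.2 and 26.5 CPM in siFTO libraries, against 14.3, 16.6 and 13.0 CPM in controls, a log2 fold change of 0.64 whose call was lost without control replicate 1 (0.52 to 0.75 with any 1 library left out). KLK1, a secreted protease, fell to 31.3, 25.2 and 33.5 CPM in siFTO libraries, against 62.7, 65.3 and 51.5 CPM in controls (edgeR adjusted p = 0.000813). ZG16B, a relative of ZG16, was called lower at -0.94. It lost the call without control replicate 1, 2 or 3, at -1.01, -0.81 and -1.01, and without siFTO replicate 4, at -0.75. The lists that make and release mucus thus held changes in both directions, as did all genes tested.

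**Figure D4:**
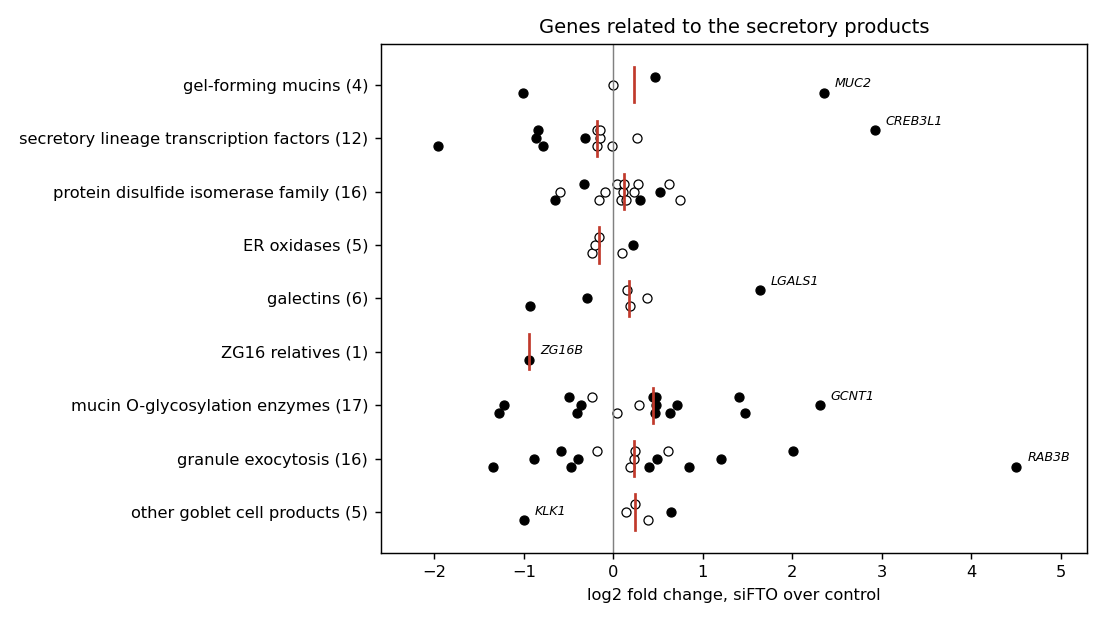
Log2 fold change of siFTO over control for the related genes tested, by list, with the number tested in brackets. Filled points passed the threshold, open points did not, and red lines are list medians. MUC2 at 2.35 was the highest mucin, and RAB3B, CREB3L1, GCNT1 and LGALS1 lie to the right but were 0.65, -0.47, 0.88 and 0.0031 without siFTO replicates 4 and 5.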

How the data were processed

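The authors deposited 1 file of raw counts of reads per gene for each of the 6 libraries. According to the processing notes of the submitters, reads were aligned or counted with TopHat2 2.0.11 and HTSeq, and hg19 and GRCh37 are the builds listed. Not given in the sources used here are the annotation release, the strand setting and the HTSeq version. Of 60483 gene IDs, 56753 were found without version in GENCODE 29 on GRCh38, which gave lengths and coordinates. This leaves unsettled which build the reads were counted on. Genes with low counts were dropped (filterByExpr of edgeR 4.0.16 in R 4.3.3, minimum count 10, minimum total 15), TMM factors were computed and the group was tested by edgeR's quasi-likelihood test, with two-sided p-values adjusted by Benjamini-Hochberg over 14965 genes at a threshold of 0.05. SE is the log2 fold change divided by the square root of F. The script was tested on simulated counts, with the same spread assumed for every gene. It recovered 32 of 67 genes changed 1.5-fold (47.8%) and 65 of 67 changed 2-fold (97.0%). A gene that was not called is thus not shown to be unchanged.

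The members and all gene lists were chosen with earlier results of these data known. Named genes were all 10 members, FTO, up to 2 per direction of each list with the largest change past the threshold (not all are printed), and the 3 genes most like each called member among genes whose log2 CPM (prior count 2) averaged 3 or more. MUC5AC, the neighbours, and the cell type markers given by name were named after their values were seen. Alternatives were scaling by library totals alone, by upper quartiles or by size factors as in DESeq2, no filter, at least 10 counts in every library, DESeq2 1.42.0, voom of limma 3.58.1, and leaving out each library or siFTO replicates 4 and 5. A correction for length and GC content (splines) was added after seeing the data. Some genes near the members and among the markers are not reported here.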

Additional observations from a re-analysis of the deposited data

How the results depend on the processing

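With all 6 libraries 2913 genes were higher and 2684 lower in siFTO cells. Leaving out 1 library gave 1383 to 3826 higher and 1589 to 2928 lower genes, 0 to 3 members lower (2 with all libraries), and 13 to 27 higher and 12 to 21 lower genes in the related lists (23 and 22 with all libraries). Without siFTO replicates 4 and 5 these counts were 970 higher and 926 lower genes, 0 members lower, and 10 higher and 8 lower related genes. Scaling by library totals alone gave 4088 higher and 1787 lower genes, 1 member lower and 35 related genes higher, and moved the median log2 fold change of all genes to 0.13. Size factors, no filter, and the correction for length and GC content each left 1 member lower, and the last gave 2113 higher and 3003 lower genes. REG4, AGR2, LGALS4 and TFF3 kept their signs under all 15 alternatives. TFF1 turned to 0.091 without siFTO replicates 4 and 5 and to 0.15 with the correction. TFF2 turned to 0.011 with library totals, 0.016 with voom, 0.10 without siFTO replicates 4 and 5 and 0.17 with the correction, and ranged from -0.43 to 0.22 with 1 library left out. FCGBP turned to 0.035 without siFTO replicates 4 and 5. The cause of these changes was not tested. Counts in single lists moved by over 1.5 times in 84 of 330 recomputations. The labels record no pairing of siFTO and control libraries, so no paired analysis was run. ZG16 lay at or under 3 counts in every library, too few to test at this depth.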
